A study of Rattus norvegicus with 6 samples.

Results

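Nuclei of the rat ileum that held transcripts of crypt progenitor genes but few mitotic transcripts were examined. The groups compared were severe acute pancreatitis (SAP) and controls (CON). Nuclei were chosen by these transcripts, and their place in the tissue was not measured. The members are the nuclei that passed quality control (at least 1200 UMIs, 500 detected genes and at most 5% mitochondrial UMIs) and held a UMI, a unique molecular identifier that stands for 1 captured transcript, of at least 4 of 8 progenitor genes, namely Olfm4, Slc12a2, Lgr5, Prom1, Rgmb, Axin2, Cdca7 and Myb. They also held fewer than 3 of 9 mitotic genes (Top2a, Mki67, Cenpe, Cenpf, Kif11, Hjurp, Ncaph, Ska1 and Pttg1) and fewer than 3 of 7 crypt-base genes (Habp2, Gfra4, Kif19, Samd5, Cfap210, Pkhd1 and Defb51). The members were selected on measured values, so the levels of these 24 genes are described and not tested. In all, 3563 of 40970 nuclei were members, and the remaining 37407 are called other nuclei here.

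Male wild-type Sprague-Dawley rats, 6 weeks old and acclimatized for 7 days, gave 1 library of ileal nuclei each, with 3 rats per group. SAP rats received 3% sodium taurocholate into the pancreatic duct, against its flow, at 0.1 mL per 100 g of body weight with the duct clamped for 5 min, and CON rats had their abdomen opened without infusion. Every rat was anaesthetized with pentobarbital at 40 mg/kg, kept without food after surgery and sampled at 24 h, and the labels give all 6 libraries the same batch. The infusion model is chemical and acute, and the tissue was taken at 1 time point only.

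The intestinal epithelium is renewed from the crypt, where stem cells that carry the R-spondin receptor Lgr5 and the secreted glycoprotein Olfm4 divide under Wnt signals. Their daughters pass through a dividing transit-amplifying stage before they mature into absorptive or secretory cells. Crypt progenitors that are not in mitosis include stem cells between divisions and early daughters, and they are looked at closely after gut injury because new epithelium starts from them.

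The libraries did not stand alike, and their differences bear on everything that follows. Members numbered 1382, 505 and 716 in CON replicates 1, 2 and 3, and 190, 242 and 528 in SAP replicates 1, 2 and 3. Their UMIs summed to 4379436, 1024060 and 2038534 in CON and to 436906, 1361227 and 1560539 in SAP. SAP replicate 1 had the fewest members and the smallest sum, so its values are the least precise. Mitochondrial UMIs, a sign of RNA quality, had medians of 0.688%, 0.131% and 0.182% in members of CON and of 1.42%, 1.03% and 0.309% in members of SAP. Members of SAP replicate 2 were by far the deepest, with a median of 3933.5 UMIs per nucleus against 1774 to 2236 in the other 5 libraries, and 64.0% of them held more than 3000 UMIs. CON replicate 1 and SAP replicate 1 were rich in transcripts of Paneth cells, the defensin-secreting cells of the crypt base. A list of 12 Paneth genes, with the alpha-defensin Defa8 as its most abundant gene, summed to 133513 CPM (UMIs of the genes among all UMIs of a library's members, scaled to a common total) in members of CON replicate 1 and to 91427 CPM in those of SAP replicate 1, against 5837 to 9563 CPM in the other 4. Other nuclei of the same 2 libraries held 111474 and 81124 CPM of that list, so they carried the excess too. The tables of CON replicate 2 and SAP replicate 1 also list barcodes of fewer than 1000 UMIs, which the other 4 do not. Nuclei carry generic names in the tables, so barcodes shared between libraries could not be counted.

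Of the name of a non-cycling Olfm4 progenitor, the Olfm4 part held for most members, while most held a UMI of at least 1 mitotic rule gene. Olfm4 was present in 76.1% of members, and 1022 of them held both Olfm4 and Lgr5, 1688 Olfm4 without Lgr5, 278 Lgr5 without Olfm4 and 575 neither. Of the members, 1319 held no mitotic rule gene, 1236 held 1 and 1008 held 2, so the class is a range cut from a count. With every nucleus cut to 1200 UMIs, Top2a was seen in 9.23% of members and 11.2% of nuclei with T cell genes. Mki67 was seen in 6.85% and 9.58% of them, and Ncaph in 12.7% and 9.58%. Whether the mitotic UMIs were the members' own transcripts was not tested. At least 3 of 12 epithelial genes were held by 96.7% of members and by 94.4% of other nuclei, so this measure hardly separates them. The list includes the adhesion molecule Epcam and the transcription factor Elf3, and none of the 12 was at 0. Cut to 1200 UMIs, the median member held 6 UMIs of the epithelial list, against 8 in other nuclei and 2 in nuclei with T cell genes. It held 2 UMIs of the enterocyte list and 5 of the goblet list, the same as the T cell nuclei. Medians of the Paneth list were 64, 4 and 4 UMIs in members of CON and 77, 3.5 and 3 UMIs in members of SAP. The medians were 0 for the enteroendocrine, tuft, B cell, macrophage, smooth muscle, fibroblast and endothelial lists and 1 for the T cell list. For mitotic genes outside the rule the median was 1 in members and also in other and in T cell nuclei. The median for replication and S phase genes was 2 in members and 1 in other and in T cell nuclei. Before the cut to 1200 UMIs, at least 3 T cell genes were held by 17.7% of members and 13.4% of other nuclei. Tox and Bcl11b, the most abundant T cell genes in members, count in these and the following shares. Members with at least 3 markers of an immune, muscle, stromal or endothelial list made up 17.9%, 14.5% and 26.5% in CON. In SAP they made up 16.3%, 34.7% and 40.2%.

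Free RNA in droplets can give a nucleus UMIs of genes that it does not express, so detection was set against 543 nuclei with T cell genes, which should lack the progenitor program. These nuclei were picked after the data had been seen, and 1 to 261 came from each library. They held at least 3 genes of the T cell list, with Tox and Bcl11b not counted. With every nucleus cut to 1200 UMIs, Olfm4 was seen in 57.2% of members, 14.1% of all other nuclei and 16.9% of T cell nuclei. Lgr5 was seen in 23.8%, 4.50% and 3.87% of the same 3 groups. For Slc12a2, the sodium, potassium and chloride cotransporter that feeds crypt fluid secretion, the shares were 69.9%, 30.3% and 27.6%. All 8 progenitor genes were thus detected in members more often than in T cell nuclei, as the choice of members requires. Before this cut, the median depth was 2100 UMIs in members and 1727 in T cell nuclei.

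Members differed widely in which progenitor genes they held. Altogether 155 combinations occurred, and the most frequent, Olfm4 with Slc12a2, Prom1 and Myb, accounted for 204 nuclei or 5.73% of members. Exactly 4 of the 8 genes were held by 1996 members, 5 by 1009, 6 by 401, 7 by 127 and all 8 by 30. A further 3711 nuclei held 3 of the genes and fell just outside. Olfm4 averaged 350.4 CPM in nuclei just outside the limit and 583 CPM in those just inside. Lgr5 averaged 82.4 CPM outside and 141 CPM inside, and the stem cell gene Smoc2, which the rule did not use, 269 CPM outside and 365 CPM inside. The brush border peptidase Anpep went the other way, with 265 CPM outside and 182 CPM inside. The median depth rose with the number of genes held, from 1807 UMIs at 3 genes and 1942 at 4 to 3893 at all 8, so depth takes part in the choice of members.

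Levels of the progenitor genes in members are given as CPM of all UMIs in a library's members. Olfm4 stood at 873, 697 and 712 CPM in CON and at 831, 310.01 and 989 CPM in SAP. Lgr5 stood at 147, 207 and 250 CPM in CON and at 314, 122 and 242 CPM in SAP. In both genes the groups overlapped and SAP replicate 2, the library with the deepest members, was the lowest of the 6. Prom1, which encodes the membrane glycoprotein CD133, stood at 287, 409 and 353 CPM in CON and at 279, 128 and 230.05 CPM in SAP, and it was the only one of the 8 whose groups did not overlap. Myb, a transcription factor of crypt progenitors, stood at 341, 651 and 467 CPM in CON and at 398, 213 and 371 CPM in SAP, with overlap. Rgmb (a BMP co-receptor), Axin2 (a Wnt target that restrains Wnt signalling), Cdca7 and Slc12a2 overlapped as well. SAP replicate 2 was the lowest library for all 8 genes.

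**Figure D1:**
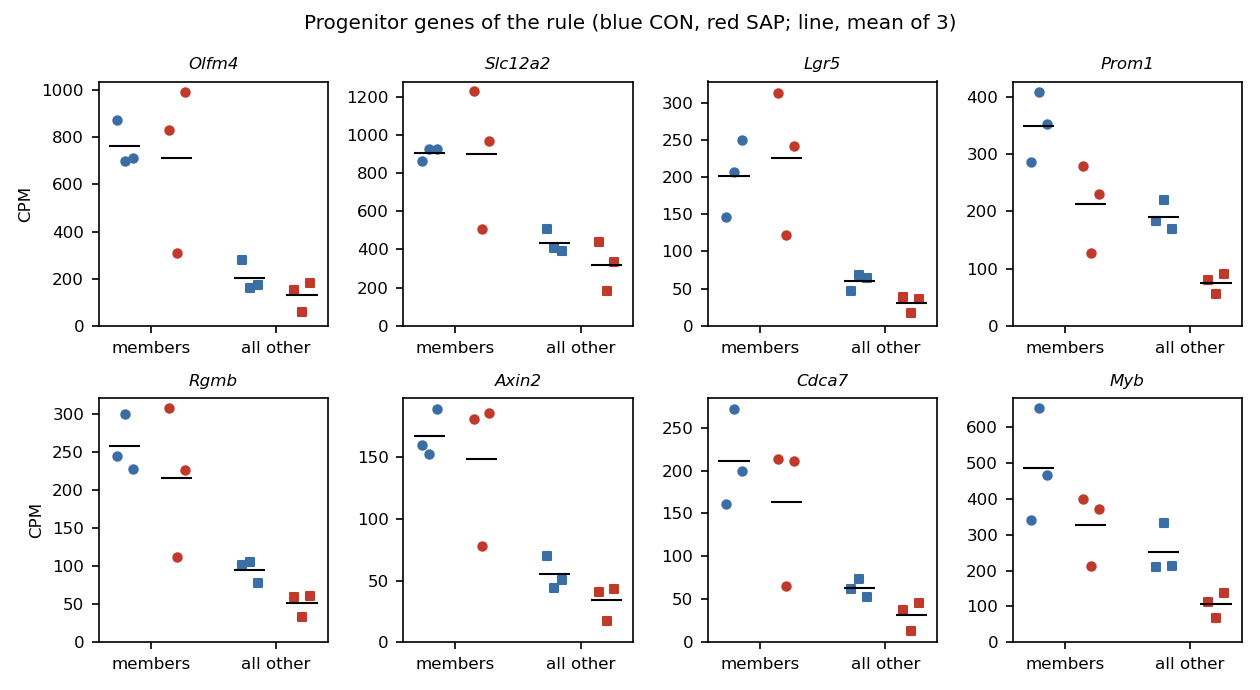
Levels of the 8 progenitor genes of the rule, in CPM of all UMIs, in members (circles) and in all other nuclei (squares) of each rat, with CON in blue, SAP in red and a line at the mean of 3. Members lie above other nuclei by construction, and the red circle in the middle of each SAP group, replicate 2, is the lowest of the 6 member values in every panel.

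Members made up 14.9%, 8.07% and 8.51% of nuclei in CON replicates 1, 2 and 3 and 5.96%, 4.05% and 6.69% in SAP. Counting error alone allowed 14.2% to 15.7% in CON replicate 1 and 3.57% to 4.59% in SAP replicate 2 (exact 95% binomial intervals). The 3 SAP values lay below the 3 CON values, and CON replicate 1 was far above the rest. The mean share was 10.5% ± 3.85 (SD, n = 3) in CON and 5.57% ± 1.36 (SD, n = 3) in SAP, a difference of −4.94 percentage points. The share fell in the limma test on logit shares (adjusted p = 0.0435 over 4 classes), while the exact two-sided permutation p was 0.1, the smallest that 3 against 3 allows. With replicate number as a block the limma adjusted p was 0.101, so the call rests on leaving the pairing out.

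Depth and single libraries entered this result. With every nucleus cut to 1200 UMIs before the rule was applied, the shares were 8.19%, 4.81% and 4.69% in CON and 3.36%, 0.838% and 3.37% in SAP. The groups still did not overlap, and the limma adjusted p was 0.0566. Without CON replicate 1 the difference was −2.72 percentage points (limma adjusted p = 0.141), and without both replicates 1, the libraries rich in Paneth transcripts, it was −2.92 percentage points (adjusted p = 0.322). With at most 1% mitochondrial UMIs allowed, the groups overlapped and the difference was −2.43 percentage points (adjusted p = 0.381). A lower share can come from fewer progenitors or from more nuclei of other kinds recovered, which cannot be told apart here.

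Dividing progenitors were compared in the same way. Cycling progenitors met the same progenitor and crypt-base limits but held at least 3 mitotic rule genes. They made up 10.7%, 4.97% and 4.62% of nuclei in CON and 0.847%, 0.687% and 3.24% in SAP. Their share fell by 5.17 percentage points (limma adjusted p = 0.0108). The call was lost without SAP replicate 2 (a difference of −4.72, adjusted p = 0.0743) and without both replicates 1 (−2.83, adjusted p = 0.0695), and without CON replicate 1 the difference was −3.20 percentage points. Nuclei with at least 3 crypt-base genes made up 4.25%, 4.27% and 4.09% of nuclei in CON and 1.25%, 0.955% and 1.48% in SAP (limma adjusted p = 0.0017), and without both replicates 1 the difference was −2.96 percentage points (adjusted p = 0.0695, with 2 rats per group) against −2.97 with all rats. All 3 crypt classes were thus lower in SAP, and the shares within a library add up to a fixed total, so they are not independent of each other.

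The balance between cycling and non-cycling nuclei was compared next. Members and cycling progenitors together are called progenitor-marked nuclei, which leaves out nuclei beyond the crypt-base limit. Of them, 41.7%, 38.1% and 35.2% were cycling in CON and 12.4%, 14.5% and 32.7% in SAP. All 3 SAP values lay below CON, but SAP replicate 3 came within a few points of CON replicate 3. The means were 38.3% ± 3.26 in CON and 19.9% ± 11.1 in SAP (SD, n = 3 each), with an exact two-sided permutation p of 0.1. Cut to 1200 UMIs, the cycling share was 14.3% ± 1.86 in CON and 5.70% ± 2.08 in SAP, again without overlap. Among members themselves, cut to 1200 UMIs, 53.9%, 42.6% and 61.7% of nuclei held no mitotic rule gene in CON and 70.0%, 84.3% and 62.7% in SAP, and without that cut the groups overlapped. These last shares use genes of the rule and were not tested.

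**Figure D2:**
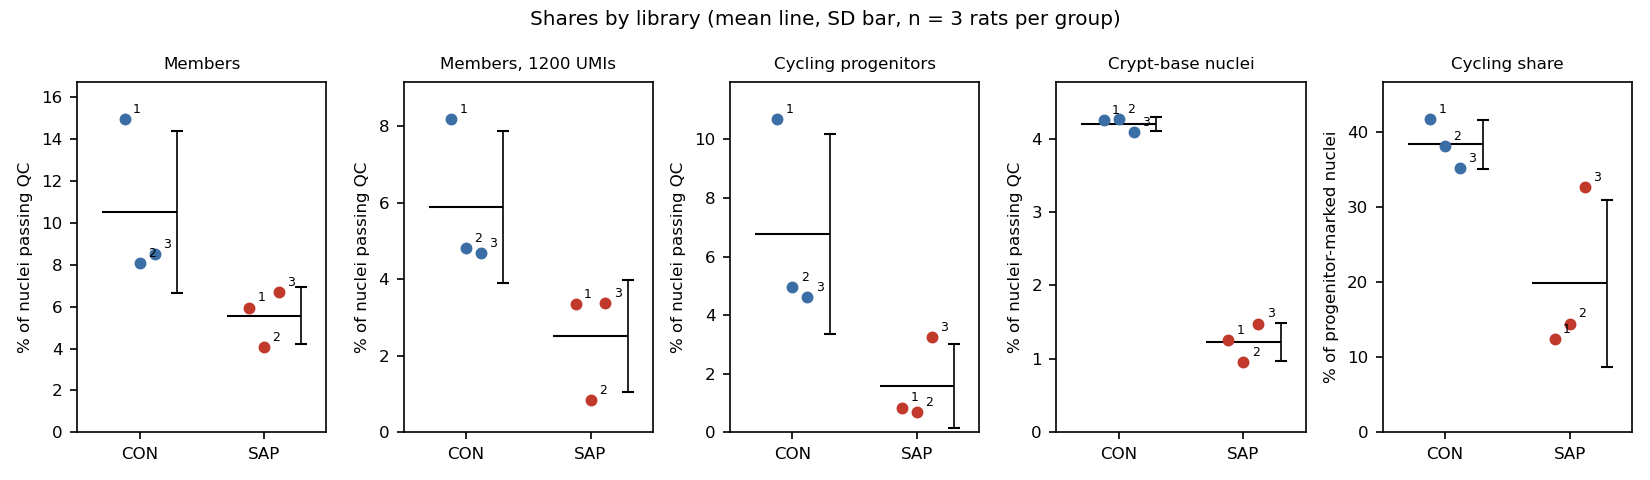
Share of members, of members after thinning to 1200 UMIs, of cycling progenitors and of crypt-base nuclei among nuclei that passed quality control, and the cycling share of progenitor-marked nuclei, in percent, with 1 point per rat, its replicate number, the mean as a line and the SD as a bar (n = 3). SAP points lie below CON points in every panel, and CON replicate 1 stands above the other CON rats for members and cycling progenitors.

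Several genes outside the rule were higher in members than in all other nuclei of every library. They are described and not tested, since the rule divided these nuclei by their own counts. Ranked by the lowest of the 6 log2 ratios of CPM, UST4r led at 57.8 CPM ± 32.1 (SD, n = 6) in members and 18.7 CPM ± 12.4 in other nuclei. It was followed by LOC108348412 and by Hs6st2, which encodes a heparan sulfate 6-O-sulfotransferase and averaged 113 CPM in members and 44.4 CPM elsewhere. Ephb1 and Ephb3, receptors of ephrins, averaged 122 and 133 CPM in members and 41.6 and 51.0 CPM elsewhere. Smoc2, a matricellular protein used as a stem cell marker, averaged 449 CPM in members, 183 CPM in all other nuclei, 415 CPM in cycling progenitors and 311 CPM in crypt-base nuclei. The water channel Aqp4, the growth factor-activating protease Hgfac, the kinase Hunk, the cytoskeletal adaptor Sorbs2 and LOC120102229 were also among the 12 genes ranked highest. Hgfac and Ephb3 were higher in crypt-base nuclei than in members, with 124 and 138 CPM. Cycling progenitors came near members for several of these genes, with 101 CPM of Hs6st2, 101 CPM of Ephb1 and 225 CPM of Sorbs2 against 113, 122 and 252 CPM in members, and Hunk was higher in them, at 154 against 146 CPM.

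**Figure D3:**
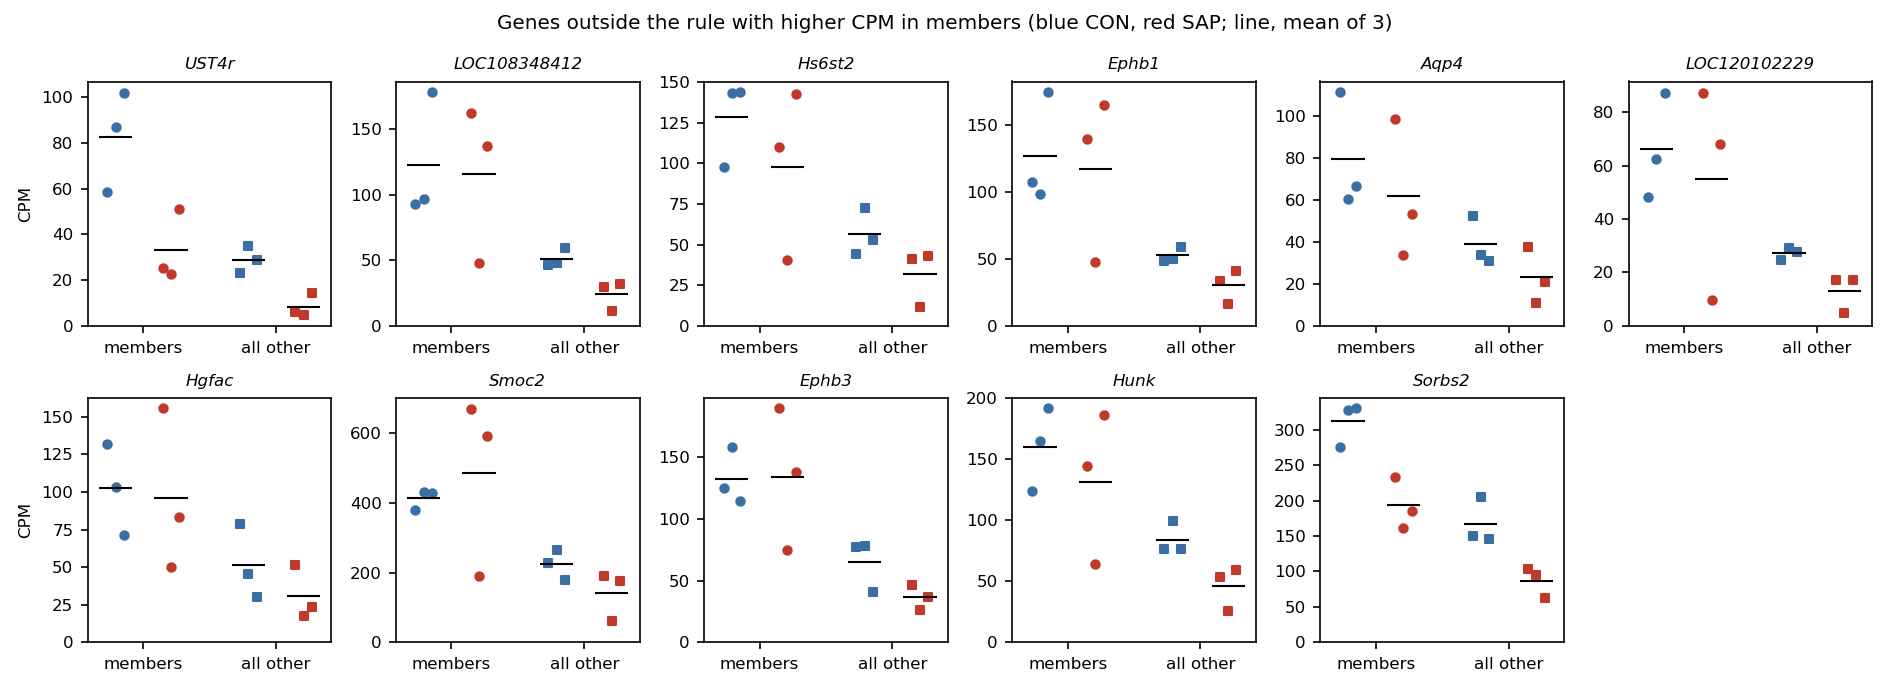
CPM of genes outside the rule that were among the highest in members over all other nuclei, in members (circles) and other nuclei (squares) of each rat, with CON in blue, SAP in red and a line at the mean of 3. In every library the circle lies above its square, and UST4r and Sorbs2 are lower in SAP in both kinds of nuclei.

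The question of what changed within members was put to sums of their counts per rat, with edgeR, over 11836 genes. One gene passed an adjusted p of 0.05 together with a log2 fold change of 0.5 or more in either direction (1 of 11836 genes, 0.00845%), and 610 genes had an unadjusted p under 0.05. It was St8sia6, which encodes a sialyltransferase that adds alpha-2,8-linked sialic acid to glycans. In members it stood at 195, 256 and 235 CPM in CON, with library sizes scaled by TMM, as for the levels of single genes from here on unless plain CPM of all UMIs is named, and at 2.49, 4.57 and 10.7 CPM in SAP. These values rest on 660, 278 and 516 UMIs in CON and on 1, 6 and 19 UMIs in SAP. St8sia6 fell by 5.02 on the log2 scale (SE 0.395, adjusted p = 0.00903), and no SAP rat came near a CON rat. The call for St8sia6 in members was lost when the 2 libraries with shallow barcodes were modelled as a class (adjusted p = 0.0807), without CON replicate 2 (0.0995), without SAP replicate 1 (0.0583) and without both replicates 1 (0.146), although the log2 fold change stayed between −5.78 and −4.44 in all alternatives tried.

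St8sia6 was also low outside the members in SAP. Its log2 fold change was −5.27 in all other nuclei and −4.96 in cycling progenitors, and the SAP effect in members differed from that in other nuclei by 0.14 (edgeR interaction, adjusted p = 0.964). In plain CPM of all UMIs, other nuclei stood at 197, 335 and 313 in CON and at 6.85, 1.70 and 14.7 in SAP. The T cell nuclei held 39, 5 and 24 UMIs of it in CON and 1, 0 and 23 in SAP, or 103, 161 and 167 CPM in CON and 47.1, 0 and 42.5 CPM in SAP, from as few as 1 nucleus in a library.

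DESeq2, run on the same sums, called 8 genes (8 of 7051 with an adjusted p, 0.113%). They were St8sia6, Slco2b1, Slc5a8, Actg2 and Cbr1l2, all lower in SAP, and Tp53i13, Reg4 and LOC120098829, all higher. Actg2 encodes an actin of smooth muscle and belongs to a list of 10 smooth muscle genes, which summed to 1059, 410 and 830 CPM of all UMIs in members of CON and to 421, 409 and 637 CPM in SAP. All 10 were detected, with Myh11 the most abundant, their median log2 fold change was −1.39, with −0.89 without CON replicate 1, −2.32 without SAP replicate 3 and −0.28 in members of at most 3000 UMIs, and the part of smooth muscle transcripts in this call was not tested.

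Genes with the smallest p among those that did not pass are given by their values. Tp53i13, a p53-induced gene, stood at 18.4, 20.3 and 20.9 CPM in CON and at 84.7, 101 and 54.1 CPM in SAP (log2 fold change 2.00, SE 0.306, edgeR adjusted p = 0.807). Reg4, a secreted lectin of the regenerating family, stood at 11.3, 4.61 and 11.4 CPM in CON and at 92.2, 23.6 and 58.0 CPM in SAP (2.54, SE 0.540, adjusted p = 0.910). For both, the lowest SAP rat was above the highest CON rat. Fkbp5, a co-chaperone induced by glucocorticoids, stood at 121, 80.3 and 152 CPM in CON and at 304, 242 and 253 CPM in SAP (1.16, SE 0.270, adjusted p = 0.910). Cldn4, a claudin of tight junctions, stood at 45.9, 48.9 and 67.8 CPM in CON and at 117, 193 and 100.3 CPM in SAP. Pdgfa, a growth factor for stromal cells, stood at 59.8, 44.3 and 71.0 CPM in CON and at 197, 189 and 96.9 CPM in SAP. The groups of all 3 were apart. Nceh1, a hydrolase of cholesterol esters, LOC120094738 and LOC120098829 completed the 8 with higher values in SAP, with log2 fold changes of 1.62, 2.66 and 2.74.

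Among the genes with lower values that edgeR did not call, Slco2b1, an uptake carrier of organic anions, stood at 109, 123 and 141 CPM in CON and at 37.4, 41.1 and 52.4 CPM in SAP (log2 fold change −1.48, SE 0.240, edgeR adjusted p = 0.807). Duox2, the oxidase that releases hydrogen peroxide at the epithelial surface, stood at 111, 145 and 107 CPM in CON and at 54.8, 54.9 and 56.3 CPM in SAP (−1.12, SE 0.225, adjusted p = 0.910). Both showed SAP rats close together and well below CON. Dgkh, a diacylglycerol kinase, stood at 571, 559.9 and 562 CPM in CON and 279, 324 and 291 CPM in SAP, and each group was tight. Esrrg, an orphan nuclear receptor of oxidative metabolism, stood at 165, 194 and 305 CPM in CON and at 82.2, 56.4 and 105 CPM in SAP. Slc5a8, a sodium-coupled carrier of short-chain fatty acids, stood at 116, 99.6 and 79.2 CPM in CON and at 17.4, 45.0 and 24.8 CPM in SAP. UST4r and Celsr1, a cadherin of planar cell polarity, had log2 fold changes of −1.36 and −1.52. All 16 genes named here had the same sign of fold change in all other nuclei and in cycling progenitors, and the smallest adjusted p for a difference between members and other nuclei was 0.681.

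**Figure D4:**
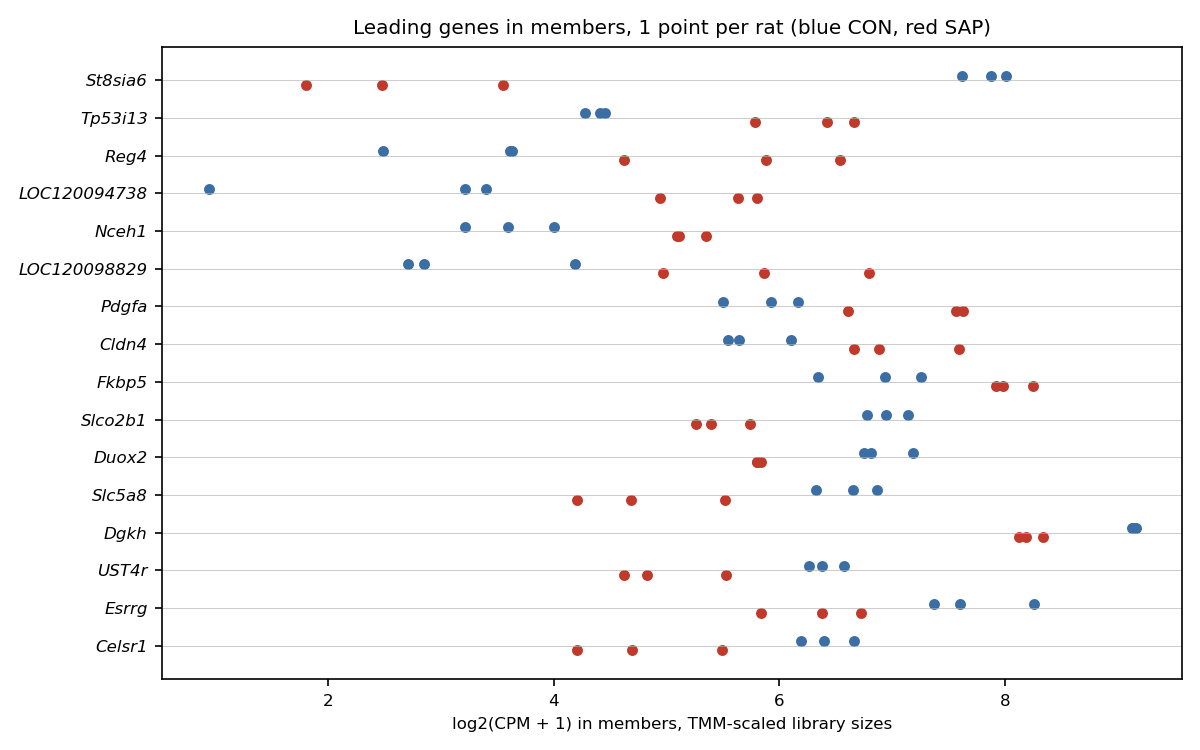
St8sia6, which passed the edgeR threshold, followed by the 8 genes with higher and 7 with lower values in SAP that had the smallest p without passing, shown as log2(CPM + 1) in members with TMM-scaled library sizes and 1 point per rat (blue CON, red SAP). The 3 blue and 3 red points of every gene are apart, as the naming rule required, and the gap is widest for St8sia6.

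Genes of each pathway are described by counts and by the median log2 fold change. Over all 11836 genes that median was −0.0044, with 49.5% of genes above 0, and SAP values were all above CON values for 4.22% of genes and all below for 7.45%. No gene of the lists passed the edgeR threshold, and every list was chosen with earlier results of these data known. Genes named only because their groups did not overlap, without values, were chosen after their values were seen.

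Most proliferation genes outside the rule had negative fold changes. Of 40 mitotic genes tested, 40 had a negative fold change, with a median of −1.03, and 17 of them (42.5%) had all SAP rats below all CON rats. In plain CPM the mitotic genes listed summed to 1406, 2973 and 1664 CPM in CON and to 890, 526 and 1783 CPM in SAP, with overlap. Ect2, a cytokinesis factor and the most abundant of them, stood at 132, 269 and 115.1 CPM in CON and at 67.3, 29.0 and 114.9 CPM in SAP (log2 fold change −1.27, SE 0.510, edgeR adjusted p = 0.910). SAP replicate 3 lay just below CON replicate 3. Cit and Smc4 overlapped, with log2 fold changes of −0.89 and −0.28. The rule limits mitotic transcripts in members of both groups, and the share of progenitors beyond that limit was itself lower in SAP, but the part of that limit in these values was not tested. Of 39 genes of replication licensing and S phase, 34 had a negative fold change, the median was −0.46 and 11 (28.2%) had SAP below CON. Prim1, a subunit of the primase, stood at 154, 195 and 162 CPM in CON and at 137, 81.5 and 114 CPM in SAP (−0.63, SE 0.248). Pola1 and Wdhd1, which act at the replication fork, had log2 fold changes of −0.63 and −0.56. The mitotic and replication medians were −0.51 and −0.13 in members of at most 3000 UMIs, −0.60 and −0.03 when the rule was applied to thinned counts, and −0.53 and −0.20 without SAP replicate 2, and the mitotic median was −1.58 without SAP replicate 3. The cause of these shifts was not tested.

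CDK inhibitors and p53 targets mostly had positive fold changes. Of 18 CDK inhibitors and p53 targets tested, 16 had a positive fold change, with a median of 0.52, and 4 (22.2%) had SAP above CON, namely Mdm2, Bbc3, Sfn and Gadd45a. Mdm2 is a p53 target that antagonises p53, and Bbc3 promotes apoptosis. Cdkn2b, an inhibitor of CDK4 and CDK6, stood at 29.0, 66.4 and 48.2 CPM in CON and at 89.7, 225 and 34.4 CPM in SAP (log2 fold change 1.31, SE 0.62, edgeR adjusted p = 0.910). Its groups overlapped because of SAP replicate 3. Sesn1 and Btg2, which slow growth downstream of p53, had log2 fold changes of 0.22 and 0.63, also with overlap. Of 27 genes of MYC and ribosome biogenesis, 16 were above 0, with a median of 0.09, and the nucleolar proteins Nop58 and Ncl had log2 fold changes of −0.25 and 0.08 and the RNA polymerase I factor Ubtf −0.14.

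Stem cell and Wnt genes that the rule did not use had no stable direction. Of 17 stem cell genes tested, 8 were above 0 and the median was −0.03. Smoc2 stood at 492, 409 and 398 CPM in CON and at 730, 198 and 520 CPM in SAP (log2 fold change 0.15, SE 0.418, edgeR adjusted p = 0.970). Hmga2, a chromatin protein of stem and fetal cells, stood at 364, 378 and 340.3 CPM in CON and at 331, 144 and 236 CPM in SAP (−0.62, SE 0.303, adjusted p = 0.910), with SAP below CON in all rats. Clca4, Kcnq1 and Cdk6 were the most abundant of the list and overlapped. Of 18 Wnt receptors and targets, 11 were above 0 and the median was 0.13. Rnf43, a ubiquitin ligase that removes Wnt receptors, stood at 1352, 1531 and 1350 CPM in CON and at 1906, 1036 and 1059 CPM in SAP (−0.08, SE 0.32). Tcf7l2, a transcription factor of the Wnt pathway, overlapped, and Ephb2 stood at 468, 457 and 494 CPM in CON and at 364, 124 and 328 CPM in SAP (−0.81, SE 0.37, adjusted p = 0.910).

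Among lineage and niche genes, most absorptive factors had positive fold changes. The median was −0.18 over 18 Notch genes, 0.06 over 10 secretory factors, 0.19 over 20 absorptive factors and −0.01 over 18 genes of BMP and TGF-beta signalling. Numb, Maml2 and Adam10 led the Notch list by level, Spdef, Xbp1 and Creb3l1 the secretory list, Elf3, Hnf4g and Hnf4a the absorptive list and Bmpr1a, Smad3 and Bmpr2 the BMP list, and the groups overlapped for each of these 12. In the absorptive list, 16 of 20 genes were above 0, while Esrrg was the gene with SAP below CON. The enterocyte marker list, with the apolipoprotein gene Apoa1 as its most abundant gene, summed to 2201, 1190 and 4232 CPM of all UMIs in members of CON and to 3028, 7405 and 2837 CPM in SAP. Of 17 crypt ion secretion genes, 8 were above 0 with a median of −0.08, 2 (11.8%) had SAP below CON and 0 had SAP above CON. The phosphodiesterase Pde4d and the sodium pump subunit Atp1b1 overlapped.

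Most genes of fatty acid oxidation and ketone synthesis had positive fold changes, and their share without overlap was not tested against the 4.22% of all genes. Of 19 tested, 14 were above 0, the median was 0.48, 6 (31.6%) had SAP above CON and 2 (10.5%), Ppargc1a and Acsl3, had SAP below CON. Enterocyte markers in members mostly had positive fold changes too, with 14 of 16 tested above 0, but only 1 had SAP above CON without overlap. Their median was 0.55, and it was 0.21 without CON replicate 2 and 0.25 without SAP replicate 2. The part of enterocyte markers in the fatty acid values was not tested. Cpt1a, which admits long-chain fatty acids to mitochondria, stood at 151, 208 and 200.2 CPM in CON and at 319, 309 and 323 CPM in SAP (log2 fold change 0.77, SE 0.214, edgeR adjusted p = 0.910). The 3 SAP rats were nearly level, and all were above CON. Acaa2, a thiolase of the same pathway that was chosen after its values were seen, stood at 67.5, 56.3 and 56.9 CPM in CON and at 152, 114 and 96.9 CPM in SAP. The acyl-CoA synthetase gene Acsl5 overlapped. In the glucocorticoid list, 15 of 19 genes were above 0, with a median of 0.28, and Fkbp5, Tsc22d3 and Cebpd had SAP above CON, while the receptor Nr3c1 itself had a log2 fold change of −0.09 and Foxo3 −0.08.

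MHC class II genes, which present peptides to helper T cells, had a positive fold change in 9 of 9 tested, with a median of 0.80, and SAP was above CON in 4 of them (44.4%), namely RT1-Ba, RT1-Da, RT1-Db1 and RT1-DOa. RT1-Db1 stood at 108, 48.9 and 96.0 CPM in CON and at 184, 434 and 172 CPM in SAP (log2 fold change 1.64, SE 0.434, edgeR adjusted p = 0.910). RT1-Da stood at 203, 95.9 and 145 CPM in CON and at 234, 242 and 244 CPM in SAP (0.69, SE 0.281). For both, each SAP rat was above each CON rat. Cd74, the invariant chain and the most abundant of the list, stood at 857, 338 and 514 CPM in CON and at 810, 1215 and 682 CPM in SAP (0.66, SE 0.383), with overlap. Over 20 class I genes the median was 0.12, and among them RT1-CE5 stood at 180.02, 164 and 311 CPM in CON and at 633, 1545 and 384 CPM in SAP (1.97, SE 0.52), while RT1-A2 and B2m overlapped. RT1 genes are near copies of each other, so counts can be split between them. Genes of immune marker lists were detected in members. The T cell list summed to 819, 942 and 1059 CPM of all UMIs in CON and to 938, 715 and 1309 CPM in SAP. Of its 9 tested genes, 3 (33.3%) had SAP above CON, Skap1 and Cd5 among them, and the median log2 fold change was 0.41, which was 0.12 without CON replicate 3, 0.18 without SAP replicate 3 and 0.83 without CON replicate 1. Tox and Bcl11b were the most abundant, with TMM-scaled means of 481 and 282 CPM in CON and 401 and 237 CPM in SAP. Both were left out when the T cell nuclei were picked. None of the 10 genes of the T cell list was at 0. In plain CPM, the macrophage list summed to 1896, 137 and 273 CPM in CON and to 4628, 400.4 and 389 CPM in SAP, and its most abundant gene, Lyz2, stands in the Paneth list too. In plain CPM, the B cell list summed to 591 CPM in SAP replicate 3 and to 27.6 to 205 CPM in the other libraries, and none of the 10 genes of either list was at 0. The part of these transcripts in the MHC values was not tested beyond 1 setting. Without members that held 3 markers of an immune, muscle, stromal or endothelial list, the MHC class II median was 0.90.

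Other lists of inflammation and injury were mixed. Of 19 NF-kB and acute phase genes, 16 were above 0, with a median of 0.42. Stat3, Lcn2, Cebpb and Cebpd had SAP above CON, whereas Duox2 and its partner Duoxa2 had SAP below CON. Pigr, the carrier of secretory immunoglobulins, and Nfkb1 overlapped, and Stat3 stood at 199, 223 and 234 CPM in CON and at 239, 385 and 259 CPM in SAP (log2 fold change 0.43, SE 0.24). The median was −0.05 over 17 interferon response genes, led by Irf8, Parp14 and Irf1, and 0.06 over 22 genes of the unfolded protein response, led by Hsp90b1, Calr and Hspa5. In the latter list 4 genes (18.2%), Ern1, Trib3, Herpud1 and Creb3l3, had SAP above CON and 0 had SAP below CON. Of 13 regeneration and YAP genes tested, 9 were above 0 with a median of 0.70, and 3 (23.1%) had SAP above CON. With members of at least 5 progenitor genes the median of this list was 0.10. Ly6al, a rat member of the Ly6 family, stood at 2096, 207 and 489 CPM in CON and at 695, 1293 and 991 CPM in SAP (0.09, SE 0.72), and Tead1 and Krt19 overlapped. Of 27 matrix and integrin genes, 17 were above 0 with a median of 0.28. Fn1 stood at 69.9, 18.4 and 29.1 CPM in CON and at 115, 20.6 and 69.3 CPM in SAP (0.69, SE 0.643, edgeR adjusted p = 0.915). Its groups overlapped, though it was higher in SAP between rats that share a number. Itga3, Itgb1, Itga6, Itgb4 and Ptk2 overlapped as well. Of 26 growth factor and cytokine receptors, 20 were above 0 with a median of 0.21, with overlap for Ghr and Egfr. Met, Il17ra and Epha2 (11.5%) had SAP above CON, and Igf1r and Insr had SAP below CON. Igf1r, the receptor of insulin-like growth factors, stood at 329.8, 353 and 338 CPM in CON and at 299, 143 and 293 CPM in SAP, with SAP below CON in all rats.

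The alpha-defensins were highest in members of the 2 libraries rich in Paneth transcripts. Defa24 stood at 58794, 1696 and 3469 CPM in CON and at 27538, 2454 and 3078 CPM in SAP (log2 fold change −0.95, SE 1.43, edgeR adjusted p = 0.940). Both replicates 1 were high in their group and the other 4 libraries were close together. Defa8 and Defa6 showed the same 2 high libraries. The median of 14 antimicrobial genes was −0.64, and it was 1.57 without CON replicate 1, so this list has no stable direction. Pla2g2a stood at 14809, 1253 and 500.4 CPM in CON and at 2264, 238 and 453 CPM in SAP (log2 fold change −2.49). Dmbt1 stood at 3091, 2569 and 1612 CPM in CON and at 2050, 612 and 1412 CPM in SAP (−0.84). The groups of both overlapped, as did those of the goblet genes Muc2, Fcgbp and Tff3. Between rats that share a number, Pla2g2a, Dmbt1 and Muc2 were always lower in SAP, whereas Fcgbp and Tff3 went both ways. Itln1, an intelectin that binds microbial glycans and a member of the antimicrobial and Paneth lists, stood at 94.5, 69.2 and 303 CPM in CON and at 8006, 965 and 471 CPM in SAP (4.33, SE 1.14, adjusted p = 0.910), with each SAP rat above each CON rat, and its log2 fold change in all other nuclei was 4.56. The tuft cell list, with 10 of 10 genes above 0, had a median of 0.95, which was −0.27 without SAP replicate 2, the library whose members held 1296 plain CPM of it against 228 to 476 CPM in the others. In plain CPM the remaining marker lists were low, at 95.5 to 142 CPM for the enteroendocrine, 55.7 to 318 CPM for the fibroblast and 75.2 to 317 CPM for the endothelial list.

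Single libraries moved most of these medians, some across 0. Without SAP replicate 2 the median was 0.31 for CDK inhibitors and p53 targets, 0.20 for NF-kB genes, 0.01 for receptors, 0.40 for MYC genes, 0.16 for stem cell genes, −0.15 for absorptive factors, −0.08 for Notch genes, −0.13 for BMP genes and −0.30 for interferon genes. Without SAP replicate 1 it was −0.28 for stem cell genes, −0.04 for Wnt genes, −0.15 for MYC genes, 0.35 for receptors and −0.11 for secretory factors, and without SAP replicate 3 it was 0.32 for regeneration genes, 0.43 for absorptive factors, 0.01 for matrix genes and 0.00076 for ion secretion genes. Without CON replicate 1 it was 0.57 for class I genes, 0.30 for unfolded protein response genes and 0.59 for glucocorticoid genes. Without CON replicate 2 it was 0.16 for glucocorticoid genes, and without CON replicate 3 it was −0.10 for class I and −0.11 for unfolded protein response genes. The MHC class II median stayed between 0.56 and 1.16 and the fatty acid median between 0.37 and 0.68 over all alternatives run.

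**Figure D5:**
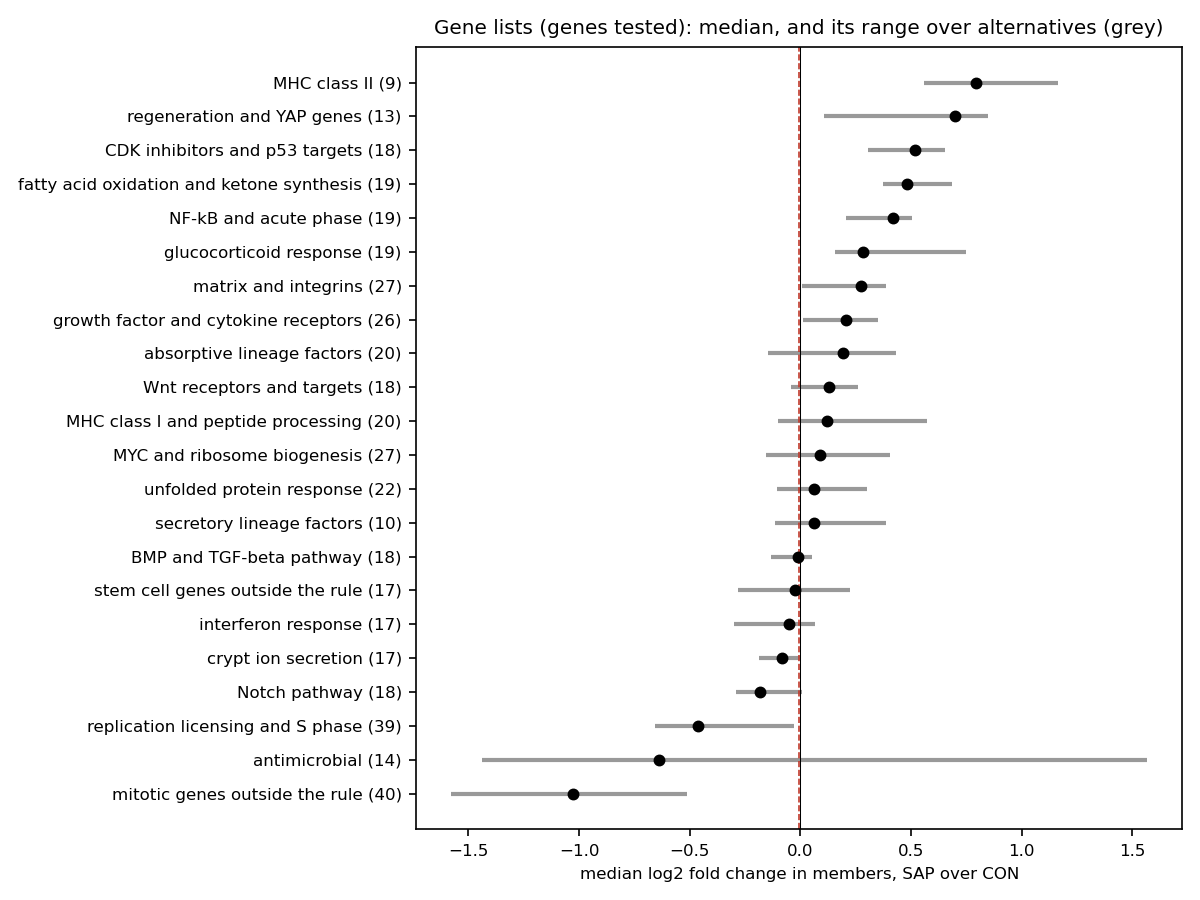
Median log2 fold change in members, SAP over CON, for 22 gene lists (number of genes tested in brackets), with a grey bar from the lowest to the highest median over the alternatives and a dashed line at −0.0044, the median of all genes. MHC class II genes lie highest and mitotic genes lowest, and the bar of the antimicrobial list spans from −1.44 to 1.57.

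Whether SAP acted on members differently from the rest of the ileum was tested with sums of members and of all other nuclei from each rat. Of 16772 genes, 4 were called (0.0238%), namely Mecom, LOC102549836, Lgr5 and Gal. Lgr5 is a gene of the rule and Gal held too few UMIs in members to be tested there. Only Mecom and LOC102549836 are therefore followed further, and their link to the rule was not tested. The difference was positive for both in all settings run, while the calls in other settings went both ways, with 9 genes higher and 15 lower under RLE size factors, 28 higher and 57 lower with no filter on low counts, and 44 higher and 57 lower without SAP replicate 2. Mecom, a transcription factor, stood at 370, 389.6 and 613 CPM of all UMIs in members of CON and at 565, 154 and 582 CPM in members of SAP. In other nuclei it stood at 249.7, 289 and 295 CPM in CON and at 180, 50.9 and 204 CPM in SAP. Members thus overlapped between groups while the other nuclei did not, and the difference of the log2 fold changes was 0.74 (SE 0.139, edgeR adjusted p = 0.0411). LOC102549836, an uncharacterized locus, had a difference of 0.76 (SE 0.136, edgeR adjusted p = 0.0235). Lgr5 is given as a description, with log2 fold changes of 0.12 in members and −0.95 in other nuclei. All other nuclei include cycling and crypt-base nuclei, whose shares were lower in SAP, and nuclei with 3 progenitor genes. With the rule lowered to at least 3 progenitor genes, mean shares were 21.6% in CON and 12.0% in SAP. Mecom, a gene outside the rule, averaged 277 CPM in nuclei with exactly 3 progenitor genes and 379 CPM with exactly 4. The part of the rule and of these shares in the differences was not tested. Without CON replicate 1, Mecom and LOC102549836 had differences of 0.70 and 0.68 and lost the call (edgeR adjusted p = 0.254 for each). Without CON replicate 2 the differences were 0.60 and 0.68 (adjusted p = 0.486 and 0.355), and without SAP replicate 3 that of Mecom was 0.72 (adjusted p = 0.0509).

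Gal, which encodes the neuropeptide galanin, entered the fit through its counts in other nuclei. Its UMIs in other nuclei were 2534, 43 and 88 in CON and 17, 13 and 28 in SAP, and 2399 of the 2534 lay in cycling progenitors of CON replicate 1. In members it had 15, 1 and 1 UMIs in CON and 2, 2 and 6 in SAP. The leading genes in the other direction, with a lower SAP effect in members than elsewhere, did not pass. They were Neu1, a lysosomal sialidase (difference −1.11, adjusted p = 0.0521), the mitochondrial gene ATP6 (−0.63) and RT1-DMb (−0.79), a chaperone of MHC class II loading.

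Against cycling progenitors, the most similar nuclei, edgeR called 0 of 12980 genes (0%), with 546 at an unadjusted p under 0.05. The genes of smallest p were Cxcl2, Itln1 and Ptprcap with a higher and Si, ND4L and ND3 with a lower SAP effect in members, with adjusted p from 0.223 to 0.536. Cxcl2, a neutrophil chemokine, had 107 UMIs in members of SAP replicate 3 and at most 6 in those of any other library. Cycling nuclei numbered 989, 311 and 389 in CON and 27, 41 and 256 in SAP, so the SAP sums of 2 rats rest on few nuclei. Leaving out SAP replicate 2 gave 39 calls.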

How the data were processed

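Single-nucleus RNA-seq of 6 ileum libraries was used. The deposited values are raw UMI counts, which the authors made with dnbc4tools and did not normalize. The submitters' processing notes name Seurat 4.3.0 and the mRatBN7.2 build. The tables hold 28282 gene symbols and 7593 to 26215 barcodes per library. Nuclei passed at 1200 UMIs, 500 genes and at most 5% mitochondrial UMIs, and members were counted by gene presence. The study kept fewer nuclei under the same stated limits, and the source of that difference was not tested. Members and gene lists were chosen with earlier results of these data known.

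Counts were summed per rat and tested by robust quasi-likelihood in edgeR 4.0.16, after filterByExpr and TMM scaling, with Benjamini-Hochberg adjustment over all genes tested, with DESeq2 1.42.0 as an alternative, and shares with limma 3.58.1 on logit values with an offset of 0.5 nuclei, under R 4.3.3. Interactions used 12 sums with rat and class as terms. Thinning drew 1200 UMIs per nucleus without replacement. Scrublet (scanpy 1.11.5) marked 0% of nuclei by its own threshold, so doublets were kept, and the top 5% of scores per library were removed in an alternative. The scripts were tested on simulated data.

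Named genes were the rule genes, the 3 most abundant tested genes of each list, called genes, up to 8 leading genes per direction without overlap and with at least 20 CPM, 13 genes that the study's text names, 12 genes highest in members over other nuclei (at least 50 CPM, pseudocount 1 CPM) and the leading genes of each interaction. Pairing was checked from the replicate numbers in the labels, which do not say what a number marks. Across genes, deviations from the group mean correlated at 0.407, 0.104 and 0.284 in CON and SAP libraries that share a number. In the remaining pairs they correlated at −0.399 to 0.148, so the lowest same-number value lay within that range. The main tests of shares and of genes in members left the numbers out. A block of replicate number was run as an alternative only. Intervals cover counting error only. The labels give 1 rat per library. Promoter sequences and the spatial data were not used here. A few genes that the naming rule selects are not reported here.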

Additional observations from a re-analysis of the deposited data

Results flagged for a closer look

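LOC102549836, Mecom and Gal were picked out because the fit with members and all other nuclei of the same rats called a difference between their SAP effects. The difference of the log2 fold changes was 0.76 for LOC102549836 (SE 0.136) and 0.74 for Mecom (SE 0.139). For Gal the fitted value was 5.50, but members held only 1 to 15 UMIs per library and 2399 UMIs lay in cycling progenitors of CON replicate 1, so it is no measure of a SAP effect in members. For LOC102549836 other nuclei stood at 332, 356 and 420 CPM of all UMIs in CON and at 169, 89.4 and 209.5 CPM in SAP, while members stood at 348, 391.6 and 635 CPM in CON and at 465, 181 and 450.5 CPM in SAP.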

How the results depend on the processing

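The lower share of members in SAP kept its direction under every alternative run, but mostly lost its side of the threshold in the limma test. The difference was −4.94 percentage points with the replicate block (adjusted p = 0.101), with shallow-barcode libraries as a class (0.0772) and on the arcsine scale (0.0502). It was −2.28 with at least 5 progenitor genes, −3.38 from thinned counts, −4.71 without the top Scrublet scores, −2.43 with at most 1% mitochondrial UMIs and, among alternatives chosen after seeing the data, −5.53 in members of at most 3000 UMIs and −2.92 without both replicates 1. Leaving out 1 library at a time gave −6.16 to −2.72, and the call held only without SAP replicate 3. It also held with at least 3 progenitor genes and among epithelial nuclei only.

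The cycling share of progenitor-marked nuclei was lower in SAP in all settings, by 24.9 to 14.8 points with 1 library left out, with a p of 0.25 under the replicate block. With at least 5 progenitor genes the groups overlapped. Genes called in members numbered 8 with DESeq2, 24 with no filter on low counts, 0 with the library class, 2 in members of at most 3000 UMIs, 0 without both replicates 1 and 0 to 2 with 1 library left out. The replicate block left the count of genes at 1. Calls against other nuclei numbered 24 with RLE size factors, 85 with no filter and 1 to 101 with 1 library left out. Against cycling progenitors they numbered 11 with no filter and 0 to 39 with 1 library left out. The cause of these shifts was not tested.

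None of the 16 leading genes changed sign in 302 values, 1 for each gene and alternative that gave one, whereas 61 of the other 104 named genes did in at least 1. Members of SAP replicate 1 held 436906 UMIs in all, which limits low genes most.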
